A study of Mus musculus with 40 samples.

Results

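The cathepsins are proteases of the lysosome, and 10 of the family (Ctsb, Ctsd, Ctss, Ctsl, Ctsc, Ctsz, Ctsh, Ctsk, Ctsf and Ctso) were taken by gene symbol out of 54307 genes listed for the choroid and retina of laser-treated mice. The choice was by name, made with earlier results of these data known. By the numbers in the library names, choroid and retina came from the same 20 mice. They were collected on day 3 after laser treatment with 6 burns per eye, which gave 40 libraries in the groups control – PLX, Tgfbr2ΔEC – PLX, control + PLX and Tgfbr2ΔEC + PLX, with 5 animals per group. Tgfbr2ΔEC mice were Tgfbr2 fl/fl and carried Cdh5-CreERT2, a tamoxifen-inducible recombinase driven by an endothelial promoter, so that deletion was directed to endothelial cells. Controls were Tgfbr2 fl/fl littermates without the recombinase, and both genotypes had a C57BL/6J background, were of either sex and received tamoxifen eye drops at 6 to 7 weeks of age. PLX5622 (PLX), an inhibitor of the CSF1 receptor on which mononuclear phagocytes depend for survival, was given in the diet from the first tamoxifen drop to the end. Choroid means the central part with the lesions, and each library is bulk RNA of one tissue of one mouse. In such samples fewer cells of a type and less RNA per cell cannot be told apart.

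Cathepsins are made as inactive precursors, sorted to the lysosome by the mannose 6-phosphate route and activated there in the acid lumen. Most are cysteine proteases of the papain fold, Ctsd being an aspartic protease, and cystatins inhibit the cysteine members. Macrophages and microglia use them to digest engulfed material and to trim antigens for MHC class II, the retinal pigment epithelium uses above all Ctsd to digest shed photoreceptor outer segments, and stromal cells use Ctsk to cut collagen.

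The 10 genes lie on 7 chromosomes of GRCm39, and Ctsk (chr3:95406178-95416732, + strand) and Ctss (chr3:95433963-95463717, + strand) are neighbours on chromosome 3, with 17230 bases and no listed gene between them. The starts of 4 members are shown because the results turn on them: Ctss and Ctsc fell most under PLX in choroid, Ctsk next to Ctss was not called, and Ctsf was the member with more transcript in retina than in choroid. They are RefSeq promoters of mouse build GRCm38.p6, 250 bases before to 50 bases after the start, found for 8 of the 10 members. Capitals mark GAGGAA or its reverse complement TTCCTC, a core of the sites bound by the myeloid factor PU.1 (Spi1), and CACGTG, the E-box that MITF and TFE factors can bind.
Ctss, chr3:95526536-95526835 (+ strand): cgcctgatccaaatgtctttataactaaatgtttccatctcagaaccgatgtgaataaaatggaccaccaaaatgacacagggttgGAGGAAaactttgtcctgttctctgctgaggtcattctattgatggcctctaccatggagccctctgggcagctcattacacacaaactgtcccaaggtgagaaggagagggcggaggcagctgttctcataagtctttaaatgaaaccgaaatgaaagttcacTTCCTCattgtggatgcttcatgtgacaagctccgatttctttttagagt
Ctsc, chr7:88277835-88278134 (+ strand): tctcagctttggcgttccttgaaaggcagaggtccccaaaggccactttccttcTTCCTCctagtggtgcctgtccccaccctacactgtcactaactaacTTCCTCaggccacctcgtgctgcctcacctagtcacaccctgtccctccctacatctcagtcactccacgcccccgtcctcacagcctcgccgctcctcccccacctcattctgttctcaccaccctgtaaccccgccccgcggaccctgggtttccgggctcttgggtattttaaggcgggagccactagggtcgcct
Ctsk, chr3:95498960-95499259 (+ strand): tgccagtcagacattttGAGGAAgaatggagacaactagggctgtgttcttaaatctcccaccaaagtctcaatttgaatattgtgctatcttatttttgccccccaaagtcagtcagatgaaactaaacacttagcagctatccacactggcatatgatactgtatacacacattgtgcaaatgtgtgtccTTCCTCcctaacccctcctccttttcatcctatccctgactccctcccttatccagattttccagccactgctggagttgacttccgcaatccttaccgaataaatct
Ctsf, chr19:4854915-4855214 (+ strand): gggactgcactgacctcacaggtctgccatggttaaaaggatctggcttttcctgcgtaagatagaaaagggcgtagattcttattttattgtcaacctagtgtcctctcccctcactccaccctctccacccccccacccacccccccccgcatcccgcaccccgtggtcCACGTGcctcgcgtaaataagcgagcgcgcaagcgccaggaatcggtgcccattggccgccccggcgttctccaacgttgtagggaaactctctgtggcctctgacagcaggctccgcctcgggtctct
On either strand, GAGGAA was found in the windows of Ctss, Ctsc and Ctsk, each time at 2 places, and in 28.3% of 32817 promoters of this length. CACGTG was found in the windows of Ctsf, Ctsl and Ctsd, and in 7.15% of all promoters. Ctss and Ctsk, which differed in their response to PLX, both held the first motif, and the matches are given as a description of these windows only.

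The values are the deposited normalized counts, which carry 1 scaling for both tissues and summed to 24718500.0 to 25956200.0 per choroid library and 22256900.0 to 24507300.0 per retina library. Judged by the spacing of the lowest values, a single read stood for about 0.743 to 1.19 normalized counts. A level of 3 reads was taken as the limit of detection, which covers counting error alone. Of 14 mononuclear phagocyte markers tested, 13 fell in choroid and 14 in retina with PLX, where 5.06% and 1.08% of all genes tested were called lower. Their summed level ranged over 37959.5 to 45268 in the 10 choroids – PLX and 8665 to 13513 in the 10 choroids + PLX, and over 1465 to 3932 and 44.3 to 149 in the retinas, with no overlap between the diets. Tmem119 was the choroid exception, with 1567 ± 201 without and 1609 ± 251 with PLX (SD, n = 10 each). Markers of the pigment epithelium and of fibroblasts set the tissues apart, with Rpe65 at 28186 ± 7143 and Col1a1 at 145560.0 ± 23423 in choroid – PLX, against 499.9 ± 203 and 105 ± 70.6 in retina – PLX. Photoreceptor transcripts were also present in choroid, with 10 markers summing to 47359 to 134710.0 in Tgfbr2ΔEC – PLX and 3968 to 27518 in control – PLX mice. Tgfbr2 itself, measured in all cells of the tissue, was 10503 ± 425 in control and 10176 ± 1077 in Tgfbr2ΔEC choroids – PLX (SD, n = 5 each), so that bulk RNA did not resolve the endothelial deletion.

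Ctsd was the leading cathepsin transcript in both tissues. To compare genes, normalized counts were divided by the length of the canonical transcript in kb, and the levels that follow, up to the shares, are per kb. Without PLX, choroid held 45090.3 ± 8619 of Ctsd (SD, n = 10), more than every other member in all mice. Ctsb (14515 ± 1826) and Ctss (9989 ± 1457) came next, with overlapping ranges of 10770.5 to 16950.0 and 8292 to 12387. They were followed by Ctsh (3569 ± 231) and Ctsl (3124 ± 300.3), whose ranges overlapped, and by Ctsc, Ctsz and Ctsk between 2456 ± 298 and 1969.8 ± 301, which overlapped too. Ctsf (879 ± 144) and Ctso (189.8 ± 14.5) were lowest, and neither overlapped with its neighbour in the order. In retina – PLX the order was Ctsd (3953 ± 786), Ctsb (2091 ± 243) and Ctsf (1719 ± 229.8), the last 2 with overlapping ranges, and Ctsk (25.9 ± 9.87) was lowest. Ctsf, next to last in choroid, thus stood directly after Ctsd and Ctsb in retina.

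As a share of all 10 cathepsins per kb, Ctsd made up 53.3% ± 3.47 in choroid – PLX and 59.3% ± 3.61 in choroid + PLX. The share of Ctsb was 17.3% ± 1.19 and 13.8% ± 0.786, that of Ctss 11.9% ± 1.32 and 7.56% ± 1.37, and that of Ctsc 2.95% ± 0.428 and 1.52% ± 0.185. Ctsk, the collagen-cutting member, held 2.39% ± 0.571 without and 3.81% ± 0.776 with PLX. In retina, Ctss held 4.95% ± 1.13 without and 0.0408% ± 0.0458 with PLX, and Ctsf 18.2% ± 2.41 and 22.8% ± 2.30. The summed level of the 10 members per kb was 84011 ± 11345 in choroid – PLX and 59669.8 ± 9336 in choroid + PLX, against 9534 ± 1354 and 8012 ± 1246 in retina. These shares are tied to each other and to the transcript lengths used, and they are given as a description.

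**Figure D1:**
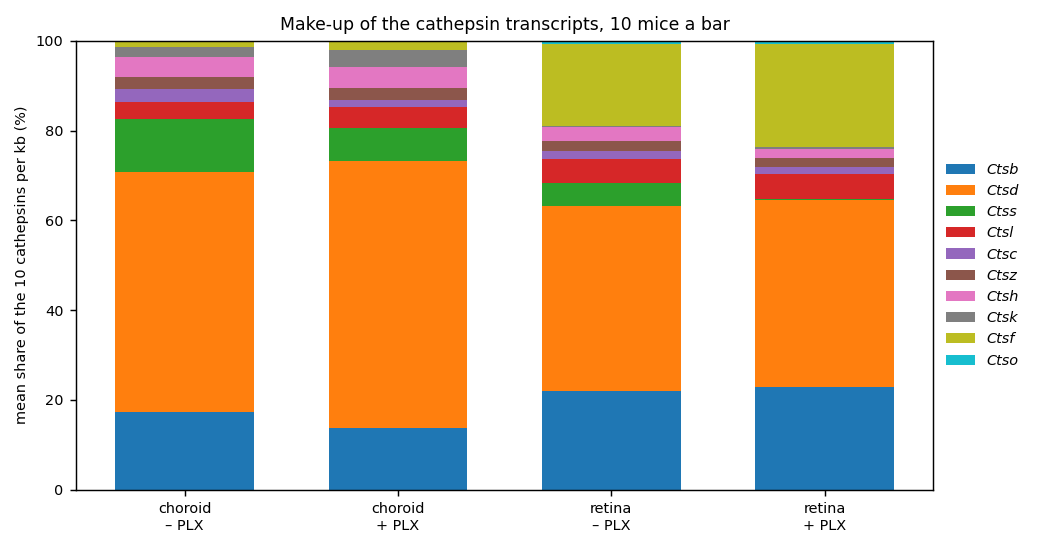
Stacked bars give the mean share of each of the 10 cathepsins in their summed level per kb of transcript (percent), for choroid and retina without and with PLX, 10 mice a bar. Ctsd is the largest segment in all 4 bars, Ctss is visible in 3 and absent to the eye in retina + PLX, and Ctsf is wide in retina.

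Every member differed between the tissues. Without PLX, 9 of 10 cathepsins were higher in choroid and 1, Ctsf, was lower, where 37.7% of 24317 genes were called higher and 37.4% lower (limma, adjusted p at or under 0.05). With PLX the counts were again 9 and 1, and 37.7% of genes were called higher and 37.7% lower. Since most genes differed between the tissues, these counts say little that is particular to cathepsins, and the sizes carry the description. Ctsk differed most without PLX, with normalized counts of 2975 to 4841 in the choroids and of 26.6 to 92.0 in the retinas, a log2 difference of 6.29 ± 0.16 (SE, adjusted p = 4.14e-29). Ctss differed by 4.43 ± 0.36 and Ctsc by 3.96 ± 0.14. Ctso, a cysteine protease of little known function, differed least among those higher in choroid, at 1071 to 1374 against 376 to 707 normalized counts. Ctsf, a cysteine protease whose loss causes a lysosomal storage disease of neurons, held 1452 to 2471 in choroid and 2917 to 4369 in retina, a log2 difference of -0.97 ± 0.11 without PLX (adjusted p = 1.73e-10) and -0.82 ± 0.11 with PLX (adjusted p = 8.20e-09). Its choroid and retina ranges did not overlap in either diet.

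**Figure D2:**
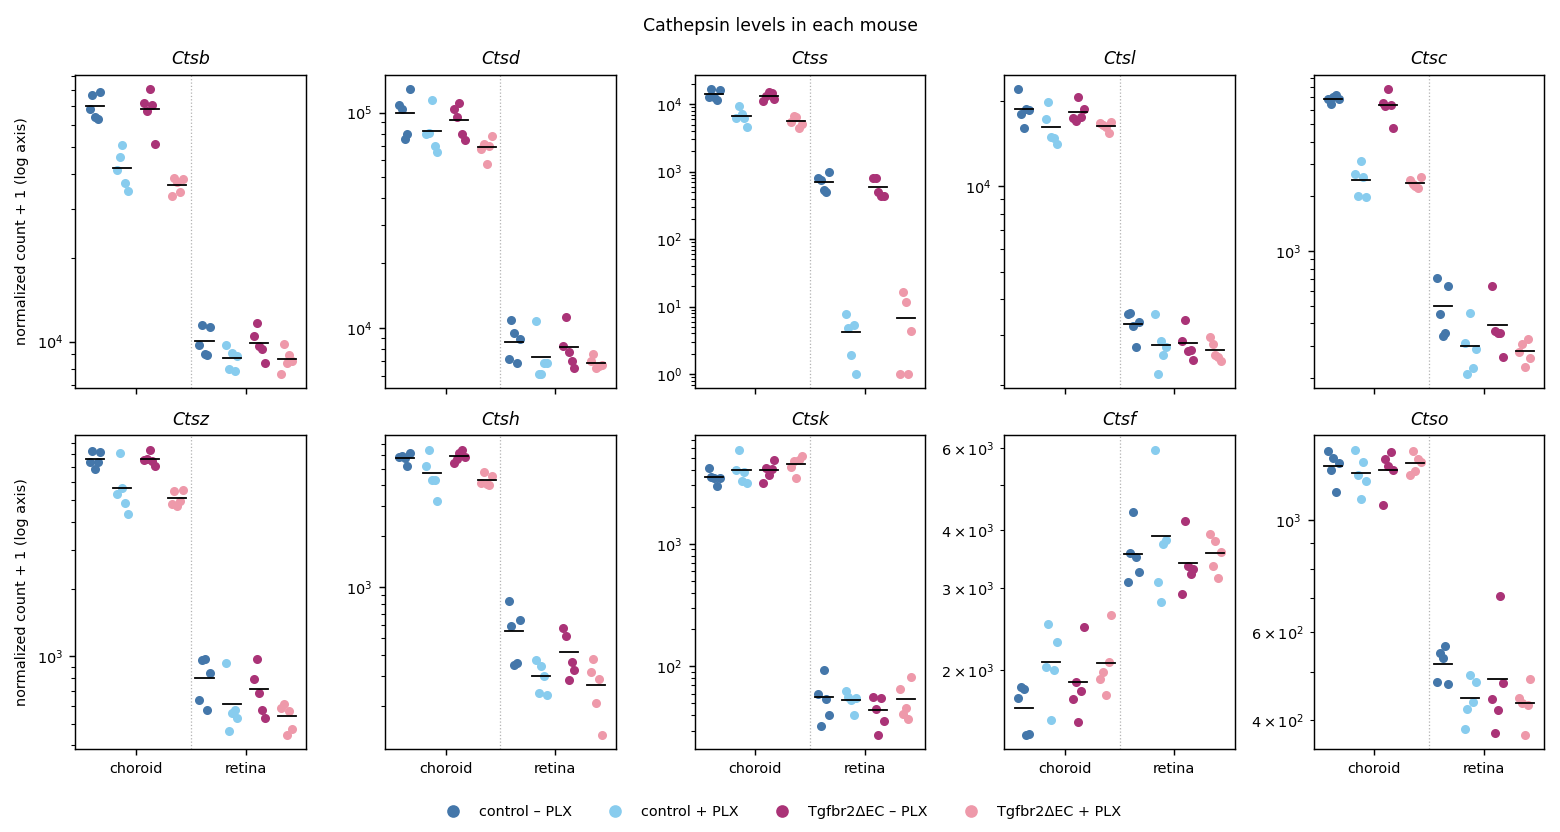
Each panel shows 1 cathepsin, with the normalized count + 1 of each mouse on a log axis (points) and the group mean (lines), for the 4 groups of choroid on the left and of retina on the right. Ctss in retina drops to 0 to 15.3 with PLX, Ctsc, Ctss and Ctsb in choroid separate by diet, and Ctsk and Ctso in choroid do not.

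PLX lowered 5 of the 10 cathepsins in choroid and raised none, where 5.06% of 23619 genes were called lower and 2.07% higher. The 5 were Ctsc, Ctss, Ctsb, Ctsz and Ctsh. The median log2 difference of the 10 members was -0.37, and that of all genes tested was 0.00054. The members spread from 36.5% of the level without PLX for Ctsc to 117% for Ctsf.

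Ctsc, or dipeptidyl peptidase 1, activates the serine proteases of granulocytes and mast cells. In control choroids its normalized count was 6877, 6474, 7074, 7243 and 6816 without PLX and 2639.6, 1998, 3139.7, 2558 and 1985 with PLX. In Tgfbr2ΔEC choroids it was 6539, 6241, 7805, 6338 and 4759 without and 2447, 2344, 2271, 2224 and 2556 with PLX. Every mouse + PLX lay below every mouse – PLX. The log2 difference was -1.45 ± 0.085 (adjusted p = 1.83e-10), and 36.5% of the level was left (95% interval 32.3% to 41.3%).

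Ctss, which cleaves the invariant chain in antigen-presenting cells and stays active at neutral pH, came second. Control choroids held 12819, 16920.4, 12614, 11419.9 and 16152 without PLX and 6139, 9517, 7048, 6173 and 4667 with PLX. Tgfbr2ΔEC choroids held 11327, 13174, 15319, 14646 and 12057 without and 5460.3, 6592, 6365, 4379 and 5174 with PLX. The diets did not overlap, and mouse 12, with the 9517, lay closest to the mice – PLX. The log2 difference was -1.17 ± 0.11 (adjusted p = 1.88e-07), with 44.5% left (37.8% to 52.3%).

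Ctsb, an endopeptidase that also trims dipeptides from the C-terminus, was next in size. Control choroids held 68288, 76829, 63891, 63058 and 78886 without PLX and 41233, 46058, 51049, 36995 and 34651 with PLX. Tgfbr2ΔEC choroids held 71934, 67480.5, 80970.0, 70611 and 51451 without and 33243, 38854, 37374, 34389 and 38256 with PLX. The highest mouse + PLX and the lowest mouse – PLX, 51049 and 51451, nearly met but did not overlap. The log2 difference was -0.82 ± 0.086 (adjusted p = 6.38e-07), with 56.5% left (49.9% to 64.0%).

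The exopeptidases Ctsz, a carboxypeptidase, and Ctsh, an aminopeptidase, fell by less. Ctsz ranged over 6904 to 8403 without and 4323 to 8089 with PLX, and 9 of the 10 mice + PLX lay below all mice – PLX. Its log2 difference was -0.53 ± 0.084 (adjusted p = 0.000191, 69.5% left). Ctsh ranged over 5196 to 6470.4 without and 3239 to 6471 with PLX, with 8 of 10 mice + PLX below all mice – PLX, and its log2 difference was -0.40 ± 0.088 (adjusted p = 0.00492, 75.6% left). In both genes the overlap came from control mouse 12 + PLX, at 8089 for Ctsz and 6471 for Ctsh, joined for Ctsh by mouse 11 at 5197. Taken by genotype, Ctsh was called in Tgfbr2ΔEC choroids (log2 difference -0.47, adjusted p = 0.0348) and not in control choroids (-0.34, adjusted p = 0.185), and the interaction was not called (interval -0.50 to 0.23).

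The other 5 members were not called in choroid. Ctsd, the aspartic protease, had 95907 ± 18332 without and 75603 ± 15447 with PLX (SD, n = 10 each), and its log2 difference of -0.34 ± 0.12 (95% interval -0.59 to -0.10) had an adjusted p of 0.0868. Ctsl, an endopeptidase, had 18455 ± 1774 and 16255 ± 1622, a difference of -0.18 ± 0.068 (interval -0.32 to -0.042, adjusted p = 0.121). Each was called in 1 fit that left out a mouse, Ctsd without mouse 13 (log2 difference -0.41, adjusted p = 0.0214) and Ctsl without mouse 12 (-0.22, adjusted p = 0.0203). Ctso held 1270.0 ± 97.1 and 1269 ± 86.0, and its interval of -0.12 to 0.12 was the narrowest of the 10.

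Ctsk, the collagenase of osteoclasts that fibroblasts also make, held 4180.1, 3503, 3419.5, 2975 and 3408 in control – PLX and 3985, 5850.4, 3256, 3876 and 3100.0 in control + PLX choroids. In Tgfbr2ΔEC choroids it held 3137, 4152, 3622, 4069.6 and 4841 without and 4197, 4733, 3461, 4859 and 5182 with PLX. The groups overlapped broadly, and no mouse + PLX lay below all mice – PLX. Its log2 difference was 0.17 ± 0.11 (interval -0.052 to 0.40, adjusted p = 0.415), so that its interval and that of its neighbour Ctss (-1.40 to -0.93) did not meet. Ctsf ranged over 1452 to 2471 without and 1562 to 2629.8 with PLX, a log2 difference of 0.23 ± 0.097 (interval 0.027 to 0.43, adjusted p = 0.190).

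**Figure D3:**
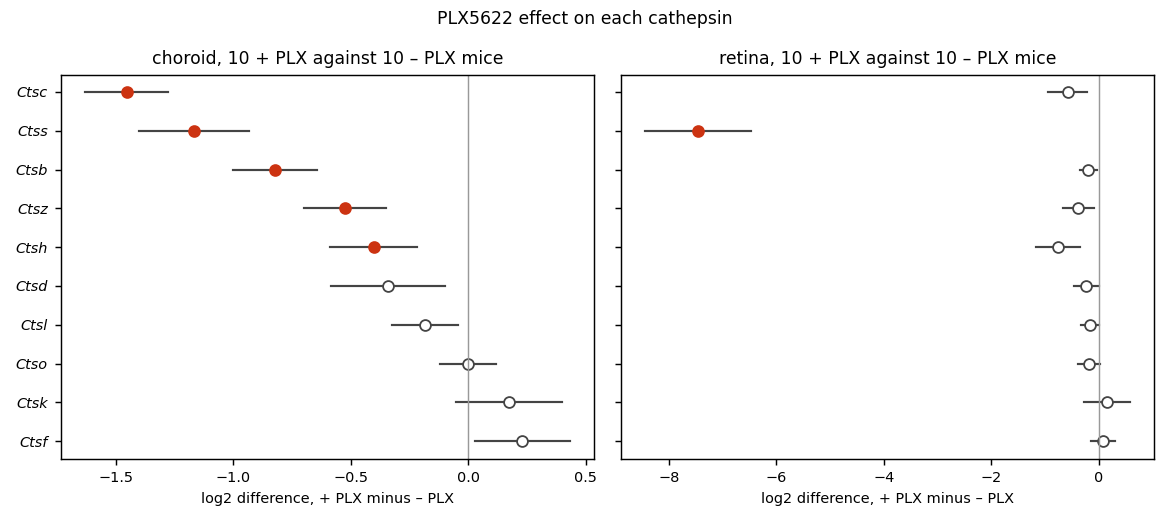
Points give the log2 difference of each cathepsin with PLX against without PLX and lines its 95% interval, in choroid (left) and retina (right, on a wider axis), 10 mice against 10; filled points were called at an adjusted p at or under 0.05. In choroid the points run from Ctsc at -1.45 to Ctsf at 0.23, while in retina Ctss at -7.45 stands far from the other 9.

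In retina PLX lowered 1 cathepsin, Ctss, and raised none, where 1.08% of 23243 genes were called lower and 0.0172% higher. Control – PLX retinas held 795, 741, 526, 496 and 980.2 normalized counts of Ctss, and control + PLX retinas 6.89, 3.90, 0.927, 4.41 and 0. Tgfbr2ΔEC retinas held 799, 792, 505, 428 and 438 without PLX and 0, 15.3, 10.8, 0 and 3.33 with PLX. Of the 10 retinas + PLX, 4 lay at or under the limit of 3 reads, 3 of them at 0, and none reached a level seen without PLX. The ratio of summed reads without to with PLX was 253 in control mice, from about 16 reads left over 5 retinas (95% Poisson interval 156 to 442), and 111 in Tgfbr2ΔEC mice, from about 28 reads (76.2 to 166). These intervals cover the counting error of the reads with PLX and leave out the spread between mice. The fitted log2 difference was -7.45 ± 0.47 (adjusted p = 7.40e-10), and because the values + PLX were so low it moved with the pseudocount, to -7.86 at 0.5 and -6.21 at 5.

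The other 9 cathepsins were not called in retina, and all 9 were still read in every retina + PLX. Ctsh had 483 ± 176 without and 281 ± 78.0 with PLX, a log2 difference of -0.76 ± 0.20 (interval -1.17 to -0.35, adjusted p = 0.0808), and it was called at an adjusted p of 0.0426 to 0.0451 in each of 3 fits that left out mouse 3, 4 or 17. Ctsc had 445 ± 158 and 289 ± 71.0, a difference of -0.58 ± 0.17 (interval -0.94 to -0.22, adjusted p = 0.195). Ctsz had 754 ± 177 and 574 ± 137 (-0.39 ± 0.14, adjusted p = 0.408). Ctsb, at 9988 ± 1160.4 and 8678 ± 744, had a log2 difference of -0.20 ± 0.074, and its interval covered 78.3% to 97.0% of the level without PLX, all of it above the interval in choroid.

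Ctsf, the member with the higher level in retina, held 3086, 3564, 4369, 3497 and 3253 in control – PLX and 5948, 3094, 2797, 3735 and 3797 in control + PLX retinas. In Tgfbr2ΔEC retinas it held 2917, 4183, 3354, 3209.9 and 3293 without and 3928, 3353, 3785, 3158 and 3592 with PLX. The diets overlapped, and the log2 difference was 0.080 ± 0.11 (interval -0.15 to 0.31). Ctsd ranged over 6548 to 11245 and 6111 to 10824 (log2 difference -0.23, interval -0.47 to 0.0049) and Ctsl over 2456 to 3590.4 and 2184 to 3547 (-0.17, -0.34 to 0.0069). The scarce Ctso (376 to 707 and 373 to 491) and Ctsk (26.6 to 92.0 and 36.3 to 81.4) had log2 differences of -0.18 (-0.38 to 0.022) and 0.15 (-0.28 to 0.58). In all 5 the diets overlapped and the adjusted p was 0.803 or more. Unadjusted, 5 of the 10 members had p under 0.05, as did 1459 of the 23243 genes tested.

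The response to PLX differed between the tissues for 3 of the 10 members. The test of this difference, choroid minus retina, called 2 cathepsins lower and 1 higher, where 0.822% and 0.543% of 24317 genes were called. Ctsb fell more in choroid, by a log2 difference of -0.62 ± 0.11 between the tissues (adjusted p = 0.000515), and so did Ctsc, by -0.87 ± 0.20 (adjusted p = 0.0112). Ctss fell more in retina, with 6.28 ± 0.51 (adjusted p = 5.03e-11), a size that depends on the pseudocount as above (5.04 at 5). For Ctsh the difference was 0.35 (interval -0.10 to 0.81), for Ctsd -0.11 (-0.45 to 0.23) and for Ctsk 0.022 (-0.44 to 0.48), none of them called. By the library names both tissues came from the same mice, and with the mouse as replicate block, which pairs them, the same 3 members were called (adjusted p = 0.000380 for Ctsb, 0.00628 for Ctsc and 1.95e-08 for Ctss).

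The markers of mononuclear phagocytes moved with these results, and their part in them was not tested. In choroid the 14 markers kept a median of 17.1% of their level with PLX (up to the 103% of Tmem119), against 36.5% for Ctsc, the cathepsin that fell most. C1qa, a complement subunit made by macrophages and microglia, went from 5219.7 ± 515 to 516 ± 179, and Csf1r, the receptor that PLX inhibits, from 8035 ± 640.2 to 3964 ± 530.2 (49.3% left), close to the 45.1% of Ctss by the same ratio of means. In retina the 14 markers kept a median of 0.578% (range 0% to 12.4%), and Ctss kept 0.701%. C1qa there went from 354 ± 114 to 1.93 ± 2.81 and Tmem119 from 64.4 ± 10.7 to 0.209 ± 0.441, while Adgre1 was at 0 in all 10 retinas + PLX. The 9 other cathepsins kept between 58.2% and 108% in these same retinas.

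**Figure D4:**
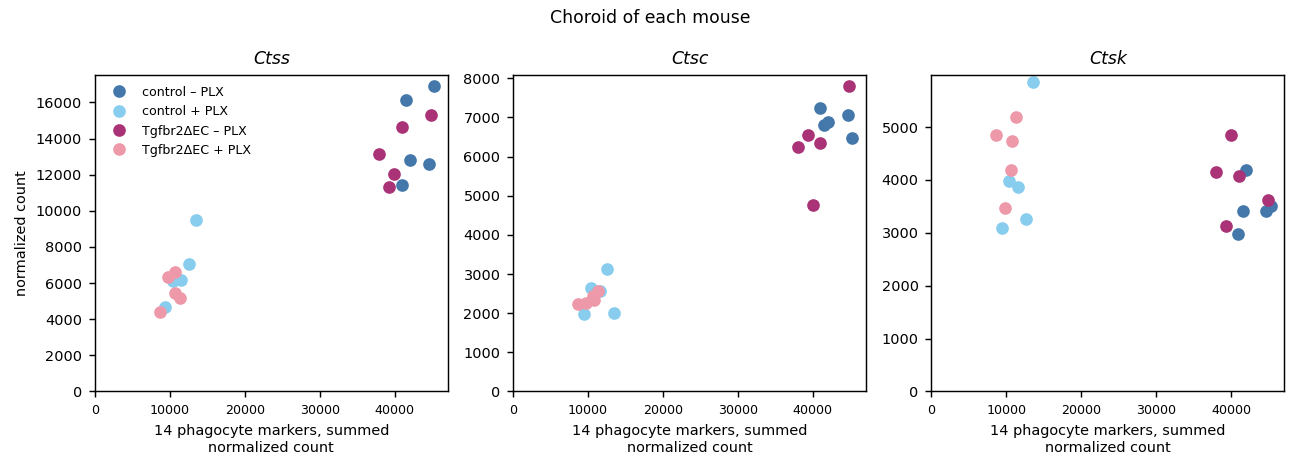
Each point is the choroid of 1 mouse, with the summed normalized count of 14 phagocyte markers on the x axis and the normalized count of Ctss, Ctsc or Ctsk on the y axis. For Ctss and Ctsc the mice with PLX form a separate cloud at low values of both measures, while for Ctsk the 2 clouds overlap in height.

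Markers of the other cell types of the choroid went up or were not called, where 2.07% of 23619 genes were called higher. Of 7 stromal fibroblast markers 1, Dcn, rose (110708 ± 15971 to 151614 ± 21165, log2 difference 0.45 ± 0.098, adjusted p = 0.00463), and Col1a1 had 145560.0 ± 23423 and 156802 ± 21946. Of 7 retinal pigment epithelium markers none was called, with Rpe65 at 28186 ± 7143 and 33001 ± 6534 and Best1 at 64.1 ± 49.9 and 47.4 ± 14.7. Of 6 endothelial markers 4 rose (Esam, Egfl7, Tie1 and Pecam1), Cdh5 (3924 ± 535 and 4335 ± 886) not among them, as did 2 of 5 mural markers. Of 5 mast cell markers 1, Kit, rose, and Cma1, Mcpt4, Cpa3 and Tpsb2 were not called. Called by limma were 0 of 5 melanocyte, 0 of 4 neutrophil, 0 of 7 lymphocyte and 0 of 5 Mueller glia markers tested. Over the 10 choroids of each diet the fibroblast markers summed to 429510.0 to 604610.0 without and 493334 to 695969 with PLX, and the pigment epithelium markers to 158263 to 324780.0 and 226999 to 365824, and both ranges overlapped between the diets. None of the 10 photoreceptor markers was called, Sag being at 5532 ± 5023 and 2508 ± 3442, nor was Snap25 of the inner retinal neurons (1209 ± 1039 and 681 ± 1194). Across the 10 markers the photoreceptor genes had a median log2 difference of -1.10 in choroid, and their levels spread widely between mice. By genotype, their sum was 47359 to 134710.0 without and 8011 to 21521 with PLX in Tgfbr2ΔEC choroids, with no overlap. In control choroids it was 3968 to 27518 and 4373 to 130823, and these ranges overlapped. With a photoreceptor score as covariate the same 5 cathepsins were called lower, with Ctsf at a log2 difference of 0.22 and Ctsh at -0.49.

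**Figure D5:**
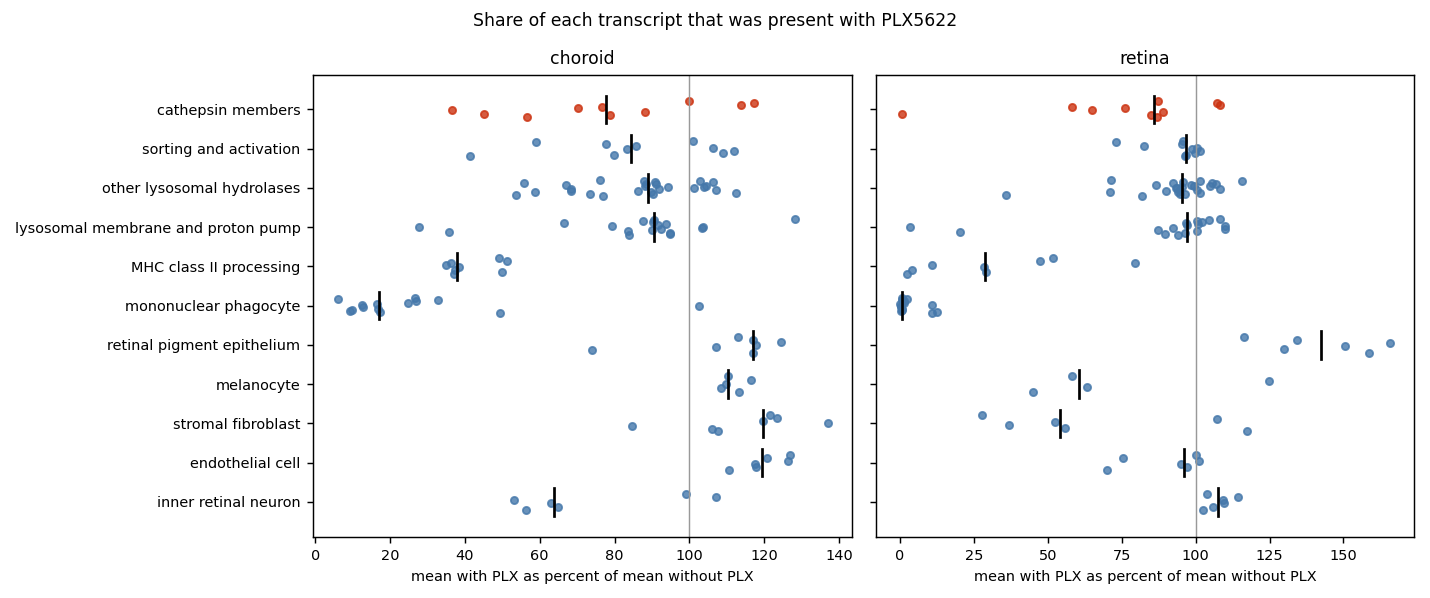
Each point is 1 gene with a mean of at least 10 without PLX, placed at its mean with PLX as percent of its mean without PLX, for the cathepsins (red), other lysosomal lists and cell type markers (blue), with the median of each list as a bar, in choroid (left) and retina (right). The cathepsins span 36.5% to 117% in choroid, between the phagocyte markers with a median of 17.1% and the fibroblast markers with 120%.

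Between the genotypes no cathepsin differed detectably. In choroid 0 members were called between the genotypes without PLX, with PLX or for the interaction of genotype and PLX, where 0.00423%, 0.00423% and 0% of 23619 genes were called by limma, and in retina 0 members against 0%, 0% and 0% of 23243 genes. Without mouse 15, a control mouse + PLX in the same fit but in neither group compared, the genotypes without PLX differed in 411 genes in choroid in place of 1. The number of cathepsins called was again 0. At an unadjusted p under 0.05 the number of members was also 0 in each of these 6 comparisons, while 567 to 2184 genes were. The photoreceptor sums of the choroids – PLX did not overlap between the genotypes, at 47359 to 134710.0 in Tgfbr2ΔEC and 3968 to 27518 in control mice. Genotype and photoreceptor content thus cannot be fully told apart there, and bulk Tgfbr2 did not resolve the deletion. With the photoreceptor score as covariate 0 members were called in choroid as well. In choroid the log2 differences of the members between genotypes lay between -0.14 and 0.17 without PLX and between -0.24 and 0.18 with PLX, and their 95% intervals between -0.57 and 0.50. Ctsb had -0.045 (interval -0.30 to 0.21) without PLX, and Ctss -0.064 (-0.40 to 0.27). The effect of PLX was close in both genotypes for Ctsc, at -1.51 in control and -1.40 in Tgfbr2ΔEC choroids (interaction 0.10, interval -0.25 to 0.46). For Ctss it was -1.08 and -1.26 (interaction interval -0.64 to 0.29) and for Ctsb -0.75 and -0.90 (-0.51 to 0.21). In retina all members had negative log2 differences without PLX, from -0.39 for Ctsh to -0.025 for Ctsb, each with an interval that included 0.

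The other genes of the pathway, from lists written with earlier results of these data known, fell or were not called in choroid, and none rose. Of all 23619 genes tested in choroid 5.06% were called lower and 2.07% higher, and of 23243 in retina 1.08% were called lower. Of the 12 other cathepsins 4 were tested and 2 fell, Ctsa, a serine carboxypeptidase that protects lysosomal enzymes (7304 ± 698 to 5474 ± 342, log2 difference -0.41 ± 0.054, adjusted p = 1.49e-05), and Ctse (15.9 ± 7.38 to 4.07 ± 1.73). Ctsw, of cytotoxic lymphocytes, had means of 58.8 and 49.0. Among the inhibitors 2 of 5 tested fell, Cst7 (27.5 ± 10.2 to 6.39 ± 4.92), an inhibitor of Ctsc in immune cells, and the cytosolic Cstb (log2 difference -0.33 ± 0.092). Cst3, the secreted cystatin C and the most abundant of the list per kb, held 55196 ± 7266 and 64921 ± 11122 and was not called, nor was Cst6 (102 ± 22.5 and 105 ± 23.9). In retina Cst7 was called lower, but its mean of 3.45 without PLX is near the limit of detection.

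Of 10 sorting and activation genes 5 fell in choroid and 0 in retina, where 5.06% and 1.08% of all genes tested were called lower. Lgmn, the asparaginyl endopeptidase that processes several cathepsins, went from 9695 ± 749 to 4004 ± 691 in choroid (log2 difference -1.29 ± 0.079, adjusted p = 2.61e-10) and held 3909 ± 662 and 3769 ± 769.7 in retina. The tissue difference of its response was -1.23 (adjusted p = 5.11e-08), in the direction of Ctsb and Ctsc. Grn, the precursor of the granulins, had a log2 difference of -0.77 ± 0.077 and Psap, the precursor of the saposins, of -0.37 ± 0.065 in choroid.

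Of 26 other lysosomal hydrolases 8 fell in choroid and 2 in retina, where 5.06% and 1.08% of all genes tested were called lower. Gusb, beta-glucuronidase, fell in both, by a log2 difference of -0.77 ± 0.071 in choroid and -0.49 ± 0.12 in retina, and Hexa, the alpha subunit of hexosaminidase, fell in choroid (-0.39 ± 0.073). Of 18 membrane and proton pump genes 6 fell in choroid and 2 of 17 in retina, led in both by Laptm5 (-1.86 ± 0.11 and -5.31 ± 0.39) and Cd68 (-1.52 ± 0.12 and -2.27 ± 0.27), both of leukocyte lysosomes. Lamp1, present in lysosomes of all cells, fell by 0.259 on the log2 scale in choroid, while Cd63 and Laptm4a, at 94.9% and 103% of the level without PLX, were not called. Median log2 differences in choroid were -0.26 for sorting and activation, -0.17 for the hydrolases and -0.15 for the membrane genes, against -0.37 for the 10 cathepsins.

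All 8 genes of MHC class II processing fell in choroid and 4 in retina, with a median log2 difference of -1.42 and -1.77. Of all genes tested 5.06% were called lower in choroid and 1.08% in retina. Cd74, the invariant chain that Ctss cleaves, went from 11566 ± 2177 to 4292 ± 1285 in choroid, 37.1% of the level without PLX, against 45.1% for Ctss. The class II chains H2-Aa (-1.44 ± 0.14) and H2-Ab1 (-1.42 ± 0.15), the peptide loader H2-DMa (-1.43 ± 0.13) and the reductase Ifi30 (-1.04 ± 0.091) fell too. In retina Cd74 went from 271 ± 351 to 6.36 ± 10.6 (log2 difference -5.03 ± 0.67) and H2-Aa from 123 ± 165 to 5.03 ± 4.41 (-3.38 ± 0.68). In both the SD without PLX was above the mean, and the 8 genes summed to 280.2 to 2512 without and 153 to 370.3 with PLX, ranges that overlapped. Of 6 transcription factors 3 fell in choroid, among them the myeloid factors Spi1 (-1.92 ± 0.18) and Irf8 (-1.17 ± 0.16), which also fell in retina (-4.12 ± 0.57 and -1.07 ± 0.23). Mitf, of pigment cells, held 2657 ± 858 and 2972 ± 731 in choroid and Tfe3 1497 ± 114 and 1607 ± 581, and neither was called.

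Within groups the cathepsins varied together to different degrees. Over the 20 mice of a tissue, with each value centred on its group mean, the closest pairs in choroid were Ctsz and Ctsh (Pearson r = 0.84), Ctsb and Ctsd (0.78) and Ctss and Ctsh (0.77), and in retina Ctsd and Ctsz (0.94). These correlations are a description, since all values of a mouse share its library and its mixture of tissue. In retina, control mouse 11 + PLX was the highest of its group in Ctsd, Ctsz, Ctsf and Ctsl, and correlations without this mouse were not computed. Among 15281 protein-coding genes in choroid, the nearest to Ctss were Arhgdia, Arpc2 and Pfn1 (r 0.91 to 0.92), to Ctsz Hexa, Ftl1 and Cyba (r 0.94 to 0.96), to Ctsb Itga5, Tyms and Galnt2 (r 0.89 to 0.90) and to Ctsd Pdpn, Krt18 and Adora2b (r 0.89 to 0.91). The nearest to Ctsk were Cpxm1, Aspa and Syf2 (r 0.89 to 0.95), to Ctsf Prss12, Sybu and Anapc4 (r 0.82 to 0.88), to Ctsc Kpnb1, Agfg1 and Slc37a2 (r 0.84 to 0.85) and to Ctsh Arl11, Camk1 and Brms1 (r 0.89 to 0.91). For Ctsl they were Mgat4b, Dhrs3 and Tgm2 (r 0.84 to 0.89) and for Ctso Kitl, Crispld1 and Pcdhb12 (r 0.82 to 0.86). In retina, among 14579 genes, Ctsf was nearest to Dnm1, Ccdc136 and Ppp1cc (r 0.94 to 0.97), Ctsc to Zc3hav1, Lyn and Cp (r 0.84 to 0.89), Ctsh to Arap3, Nde1 and Aif1l (r 0.78 to 0.82) and Ctsb to Dnajb1, Mgat4b and Jmjd8 (r 0.87 to 0.88). Ctsd was nearest to Ftl1, Rps4x and Cox8a (r 0.97 to 0.98), Ctsz to Atp6v1f, Psmc2 and Camk1 (r 0.94 to 0.94), Ctsl to Arhgdia, Vasp and Clic1 (r 0.91 to 0.96), Ctso to Kcnj3, Csmd1 and Isl1 (r 0.73 to 0.79) and Ctsk to Agbl5, Catsperd and Mms22l (r 0.76 to 0.77). For Ctss in retina no nearest genes are given, since 4 of the 10 retinas + PLX lay at or under the limit of detection and the highest held 15.3 normalized counts.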

How the data were processed

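The study sequenced polyadenylated RNA of both tissues from 20 mice (40 libraries, each column of the table matched to 1 sample). Per the labels and methods, the authors checked reads with FastQC 0.11.5, ran salmon 1.10.1 for quantification against GRCm39, used tximport for import and took normalized values from DESeq2 1.36.0, and the deposited values are the resulting signal per gene, called normalized counts here. They are not whole numbers and were not tested as counts. Both tissues share 1 scaling, since each library had the same median ratio (1.01) to the geometric means of the 15800 genes that no library lists at 0. The depth per library, about 20987000 to 30524000 reads, is approximate and comes from the spacing of low values, of which 44.9% to 71.6% lay within 0.1 of a whole read. Identifiers were matched to GENCODE M39 of GRCm39 for symbols, positions and canonical transcript lengths, 53700 matching and 607 not, and this release is later than the authors' own. 

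limma 3.58.1 (R 4.3.3) with a mean-variance trend was run on log2(normalized count + 1), a scale that understates changes of low genes, with a minimum mean of 1 per gene, with all groups of a tissue (or of both tissues) in 1 fit and no covariates. Benjamini-Hochberg adjustment covered all genes tested, and an adjusted p at or under 0.05 was called. The library names carry a number and a letter for the tissue, and the number was read as the mouse, so that mice are the replicates. Same-group libraries correlated at 0.922 to 0.977, and none were duplicates. The 2 tissues of a number come from 1 mouse by the library names, sex-linked transcripts gave the same sex in both tissues for 20 of 20 numbers, and deviations from group means correlated between the tissues at -0.16 to 0.29. On data made with known changes of 1 log2 unit, in genes with a mean of at least 10, the procedure recovered 156 of 200 changed genes among 23619 in choroid. It called 10 unchanged genes, and smaller changes were not simulated. The cathepsins and all lists were chosen with earlier results of these data known. Of each pathway list, the genes named are the 2 with the lowest p in each direction among those called for PLX in each tissue and the 3 with the highest level per kb in control – PLX choroid. M6pr, Gnptab and other called genes outside that rule are counted and not described, and some genes inside it are not reported here. Alternatives were pseudocounts of 0.5 and 5, a minimum mean of 10 or none, library totals or median ratios as scaling, a robust variance, sex and photoreceptor scores as covariates, leaving out each mouse, and the mouse as block. The authors' covariates, sex and an estimated percentage of neuronal cells, were not in the main model, and the sex score, from sex-linked transcripts, stands for the first in an alternative. Other computing was done in Python 3.11.15 with pandas 2.3.3, scipy 1.17.1 and numpy 2.4.6.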

Additional observations from a re-analysis of the deposited data

Results flagged for a closer look

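Of 80 sets of 5 mice (10 cathepsins in 8 groups), 3 held a mouse that stood apart from the other 4 by more than 0.71 of the range of the group, where chance gives about 4. All 3 were in retina. Control mouse 11 + PLX was high in Ctsd, at 10824 normalized counts against 6111 to 6906 in the other mice (gap of 0.831 of the range), and in Ctsz, at 929 against 463 to 574 (0.762). Tgfbr2ΔEC mouse 6 – PLX was high in Ctsc, at 641 against 258 to 362 (0.730).

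The response to PLX differed between choroid and retina in 3 members by the test of that difference. It was -0.62 for Ctsb and -0.87 for Ctsc, which fell more in choroid, and 6.28 for Ctss, which fell more in retina (log2 scale, choroid minus retina).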

How the results depend on the processing

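Each comparison was repeated under 29 alternatives, and none reversed the direction of a called cathepsin. In all of them Ctsc, Ctss, Ctsb, Ctsz and Ctsh stayed called lower in choroid, Ctss in retina, and Ctsb, Ctsc and Ctss for the difference between tissues. With the mouse as replicate block the difference between tissues was called for 268 genes and the same 3 cathepsins, and the pairing changed no other call of a cathepsin. A minimum mean of 10, under which fewer genes were tested, left 154 genes called for PLX in retina, against 254, and the cause was not tested. The single gene called between genotypes in choroid with PLX was lost (0 genes) at a pseudocount of 5, a minimum mean of 10 and with the sex or photoreceptor score, and the one called without PLX at a minimum mean of 10 (0); the cause was not tested.

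Leaving out 1 mouse gave 5 to 6 cathepsins lower in choroid (6 without mouse 12 or 13) and 1 to 2 in retina (2 without mouse 3, 4 or 17). The genes called between genotypes numbered 1 to 411 in choroid without PLX, 0 to 1 in choroid with PLX and 0 to 1 in retina with PLX. The 411 came without mouse 15, a control mouse + PLX and so in neither group compared. Its choroid held a photoreceptor sum of 130823, and the choroids of Tgfbr2ΔEC mice 9 and 6 – PLX held 134710.0 and 110220.0. The difference between tissues was called for 278 to 620 genes, the 620 also without mouse 15. Levels under 3 reads, reached by Ctss in 4 retinas + PLX, limit how large its fall can be stated.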
